A study of Mus musculus with 24 samples.

Results

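The enzymes described here are steroid dehydrogenases and a steroid reductase of mouse liver: Hsd3b2, Hsd3b3 and Hsd3b5, Hsd11b1, Hsd17b2, Hsd17b6, Hsd17b11, Hsd17b12 and Hsd17b13, and Srd5a1. The 10 genes were taken by name, not by their values, and each was read from the probe set (the group of array probes that stands for 1 transcript) mapped to its symbol alone. Of the 10 genes, 9 had such a probe set, 1 each, among 18820 named genes, and Srd5a1 was not analysed here. RNA of 24 livers was measured, 1 mouse per array, in 4 groups of 6. The groups were FXR-/- mice given obeticholic acid (OCA, also INT-747), FXR-/- mice given vehicle, wild-type mice given OCA and wild-type mice given vehicle. All were male C57BL/6 mice on chow, treated at 9 to 12 weeks of age by oral gavage once a day for 7 days, with OCA at 10 mg/kg/day in 1% methyl cellulose or with 1% methyl cellulose alone. FXR is the nuclear receptor for bile acids, encoded by Nr1h4, and OCA is a semi-synthetic agonist of it. The labels give the allele as FXR-/-, name no tissue-specific driver for it and do not say whether the 2 genotypes were littermates.

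Hydroxysteroid dehydrogenases move hydrogen between a steroid and a nicotinamide cofactor, which turns a hydroxyl group into a keto group or back and so switches hormones between active and inactive forms. The liver uses them to regenerate glucocorticoid, to clear androgens and estrogens and, with several members of the family, to handle retinoids and fatty acids in place of steroids. In rodents several of these liver enzymes differ between males and females, a difference set by the pattern of growth hormone secretion. The 9 genes are ordered below by role: the Hsd3b enzymes, the glucocorticoid enzyme Hsd11b1, the Hsd17b enzymes that act on sex steroids, and the Hsd17b enzymes of lipid metabolism.

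Values are log2 signals, on which 1 unit is a doubling of signal, given as the lowest, median and highest array of each group of 6, and changes are log2 differences ± SE. Genes were called at an adjusted p under 0.05. The number of arrays limits the precision. Nr1h4 itself lay at 9.80 to 10.05 in FXR-/- OCA livers, 9.88 to 10.13 in FXR-/- vehicle livers, 9.85 to 10.28 in wild-type OCA livers and 9.96 to 10.30 in wild-type vehicle livers, so its probe set did not separate the genotypes, and the sources used here do not say whether it lies in the deleted part, so it checks nothing. Nr0b2, a direct target gene of FXR, was lower in FXR-/- livers (−2.62 ± 0.25, adjusted p = 1.21e-08 under vehicle) and higher with OCA in wild-type livers (1.41 ± 0.25, adjusted p = 0.0244). Wild-type vehicle replicate 6 stood apart, with 532 genes over 2-fold from the rest of its group, against 2 to 90 in the other arrays. A number in the array codes (5, 7 or 9), whose meaning is not given, differs between the groups: every FXR-/- OCA array carries 9 and every wild-type OCA array carries 5, so under OCA genotype and number cannot be told apart within a number, while 4 arrays of each genotype under vehicle share number 7. Of the vehicle arrays only wild-type replicates 5 and 6 carry number 5. A fit with the number as a block ties wild-type OCA to the rest through them, and through replicate 5 alone when replicate 6 is left out. Array medians over the named genes were 5.32 to 5.38 in FXR-/- livers given either treatment and 5.14 to 5.23 in wild-type livers given either treatment, so small genotype changes depend on the scaling. In whole liver, fewer cells of a type and less RNA per cell cannot be told apart. Among cell type markers under vehicle, 7 of 12 Kupffer cell genes were higher and 1 lower, 8 of 10 stellate cell genes were higher and 1 lower, 3 of 5 cholangiocyte genes were higher, and 2 of 9 hepatocyte and 2 of 9 sinusoidal endothelial genes were lower. None of the lymphocyte (8), neutrophil (5) or adipocyte (3) markers was called by limma, with 2, 1 and 0 of them at an unadjusted p under 0.05. Without wild-type vehicle replicate 6, 2 neutrophil markers were higher, 1 lymphocyte marker was lower and 9 Kupffer cell markers were higher, and that array had the highest neutrophil (7.48, lowest of its group 5.78), Kupffer, stellate and cholangiocyte sums of its group. Under OCA 7 of 9 hepatocyte markers were lower, 9 of 12 Kupffer cell and 8 of 10 stellate cell markers were higher with 1 lower in each, 2 of 9 sinusoidal endothelial markers and 1 of 3 adipocyte markers were higher, and no cholangiocyte, lymphocyte or neutrophil marker was called by limma, with 0, 0 and 1 of them at an unadjusted p under 0.05. The log2 of the summed marker signal spanned 16.01 to 16.08 in FXR-/- and 16.08 to 16.16 in wild-type vehicle livers for hepatocytes, 12.52 to 12.7 against 11.69 to 12.35 for Kupffer cells, and 12.18 to 12.42 against 11.65 to 12.03 for stellate cells. For hepatocytes it spanned 15.94 to 16.05 in FXR-/- and 16.11 to 16.17 in wild-type OCA livers. In FXR-/- and wild-type vehicle livers the adipocyte markers averaged 2.77 and 3.00 (Adipoq), 4.24 and 4.04 (Retn), and 3.29 and 3.45 (Lep). Their highest wild-type vehicle arrays read 4.36, 6.13 and 3.63 in the same order. The olfactory receptor genes, taken here as a scale of background signal, had a median of 2.43 and a 95th percentile of 3.5. Single arrays thus read above that scale for Adipoq and Retn. Beside these marker counts, 27.5% of all genes were called under vehicle and 30.7% under OCA. The part of these markers in the results below was not tested.

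Between FXR-/- and wild-type livers 6 of the 9 genes were called under vehicle: Hsd3b5, Hsd11b1 and Hsd17b2 were lower and Hsd17b11, Hsd17b12 and Hsd17b13 were slightly higher. Over all 18820 genes 27.5% were called in this comparison, 12.1% as lower and 15.4% as higher. The 3 higher calls were lost with each array centred on its median, with the array number as a block and within number 7. Under OCA, in different mice, 6 of the 9 were called as well, with Hsd3b2, Hsd3b3, Hsd3b5, Hsd11b1 and Hsd17b2 lower and Hsd17b12 higher, where 30.7% of all genes were called, 13.3% as lower and 17.4% as higher. The median log2 change of the 9 was −0.25 under vehicle and −0.34 under OCA, beside −0.03 and −0.02 over all genes, and under vehicle it was −0.39 without wild-type vehicle replicate 6. Under vehicle the genotypes did not overlap for 3 lower and 2 higher genes of the 9, where 15.1% of all genes had no overlap, 5.67% as lower and 9.40% as higher. Under OCA they did not overlap for 5 lower genes and none higher, where 18.4% of all genes had no overlap, 7.48% as lower and 10.9% as higher. Sizes were far from even, from a log2 change of −7.08 for Hsd3b5 under vehicle to 0.17 for Hsd17b13.

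**Figure D1:**
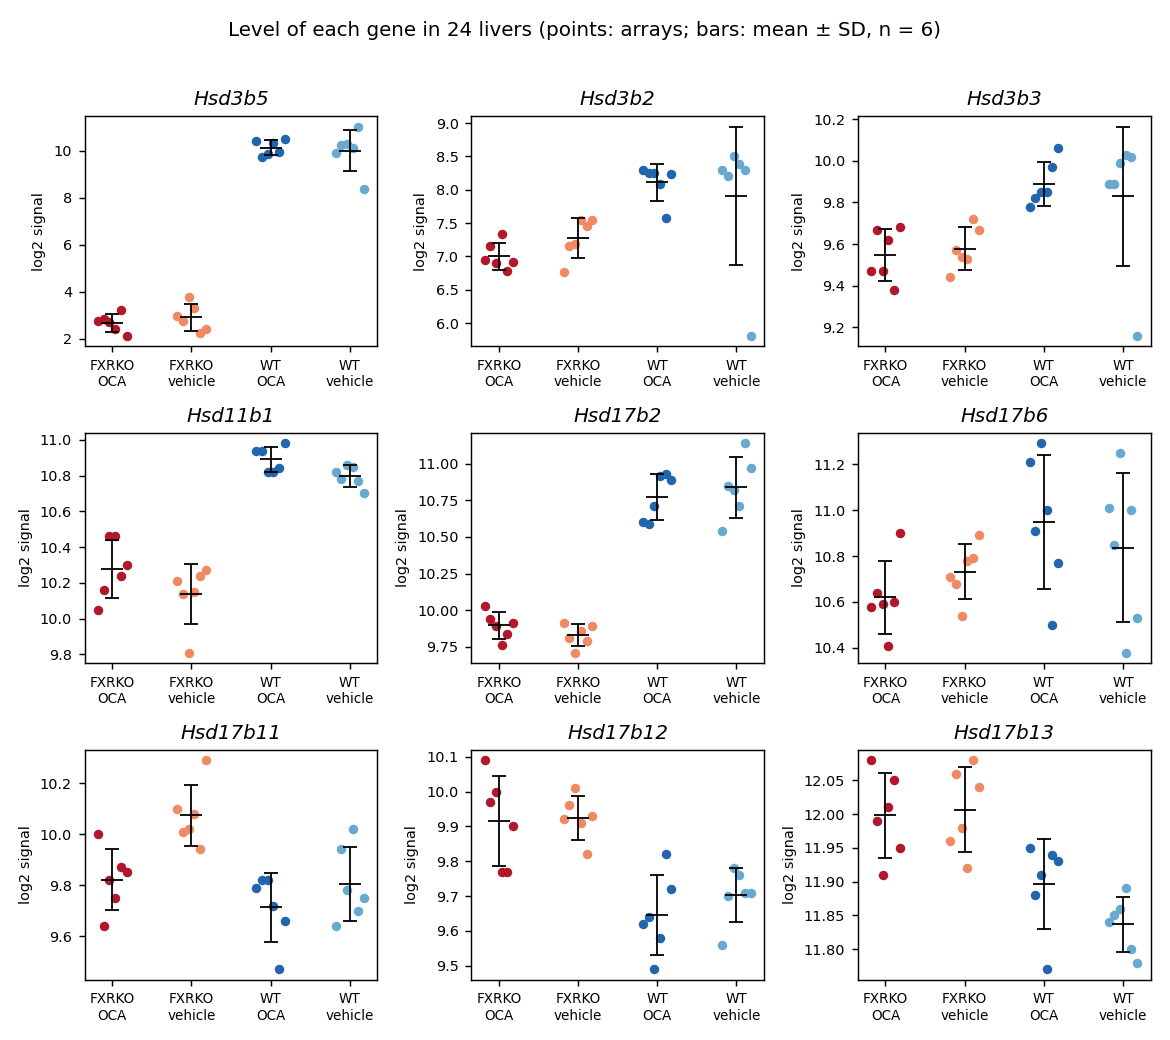
Log2 signal of each of the 9 measured genes in the 24 livers, 1 point per array, with the mean and SD of each group of 6 (each panel has its own axis). Hsd3b5 lies between 2.12 and 3.77 in all 12 FXR-/- livers and between 8.38 and 11.02 in all 12 wild-type livers, and a single wild-type vehicle array lies low for Hsd3b2 and Hsd3b3.

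Hsd3b5 encodes a 3-keto-steroid reductase that in mice is typical of male liver, where it reduces dihydrotestosterone. It lay at 2.12, 2.73 and 3.21 (lowest, median, highest) in FXR-/- OCA livers and at 2.25, 2.85 and 3.77 in FXR-/- vehicle livers. It lay at 9.73, 10.14 and 10.50 in wild-type OCA livers and at 8.38, 10.17 and 11.02 in wild-type vehicle livers. The genotypes were separate under both treatments, with the lowest wild-type array more than 4 log2 units above the highest FXR-/- array. The change was −7.08 ± 0.30 under vehicle (135-fold lower, adjusted p = 2.94e-15) and −7.46 ± 0.30 under OCA (176-fold lower, adjusted p = 1.14e-15). The FXR-/- values lie where background signal lies: the olfactory receptor genes had a median of 2.43 and a 95th percentile of 3.5, so the fold is a fold of array signal, and the level of the transcript in FXR-/- livers is not resolved.

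Hsd3b2 and Hsd3b3 encode related 3-beta-hydroxysteroid dehydrogenases, which oxidise and isomerise steroids of the pregnenolone type. Hsd3b2 lay at 6.78, 6.93 and 7.33 in FXR-/- OCA livers, 6.77, 7.33 and 7.54 in FXR-/- vehicle livers, 7.57, 8.24 and 8.29 in wild-type OCA livers, and 5.81, 8.29 and 8.50 in wild-type vehicle livers. Under OCA every FXR-/- array was below every wild-type array, and under vehicle the only wild-type array within or below the FXR-/- range was replicate 6, at 5.81. Its change was −1.11 ± 0.30 under OCA (2.16-fold lower, adjusted p = 0.00524) and −0.64 ± 0.30 under vehicle, where it was not called (adjusted p = 0.119). Without wild-type vehicle replicate 6 the change under vehicle was −1.06 (adjusted p = 1.31e-06), and among the 4 against 4 arrays of number 7 it was −0.91 (adjusted p = 9.63e-05). Over all alternatives tried for this contrast the adjusted p ranged between 1.31e-06 and 0.248.

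Hsd3b3 lay at 9.38, 9.54 and 9.68 in FXR-/- OCA livers, 9.44, 9.55 and 9.72 in FXR-/- vehicle livers, 9.78, 9.85 and 10.06 in wild-type OCA livers, and 9.16, 9.94 and 10.03 in wild-type vehicle livers. As for Hsd3b2, the genotypes were separate under OCA and overlapped under vehicle through replicate 6 alone, the lowest of the 24 arrays at 9.16. The change was −0.34 ± 0.11 under OCA (adjusted p = 0.0167) and −0.25 ± 0.11 under vehicle (adjusted p = 0.0859). Under vehicle it was −0.39 without replicate 6 (adjusted p = 8.44e-05) and −0.34 within number 7 (adjusted p = 0.00798), and the adjusted p spanned 8.44e-05 to 0.184 over the alternatives. Under OCA the block on the array number moved Hsd3b3 to −0.60 with an adjusted p of 0.0978, which ended the call, and without replicate 6 in that fit neither Hsd3b2 (−0.70, adjusted p = 0.173) nor Hsd3b3 (−0.16, adjusted p = 0.631) was called. Without the arrays whose names end in _2, Hsd3b2 (−0.98, adjusted p = 0.102) and Hsd3b3 (−0.31, adjusted p = 0.144) were not called under OCA either. Over the alternatives under OCA the adjusted p spanned 8.30e-06 to 0.173 for Hsd3b2 and 1.61e-04 to 0.631 for Hsd3b3. Leaving out replicate 6 moved the count of called genes under vehicle to 8 of 9, 3 higher and 5 lower. In that fit 2974 of all 18820 genes were higher and 2477 lower.

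**Figure D2:**
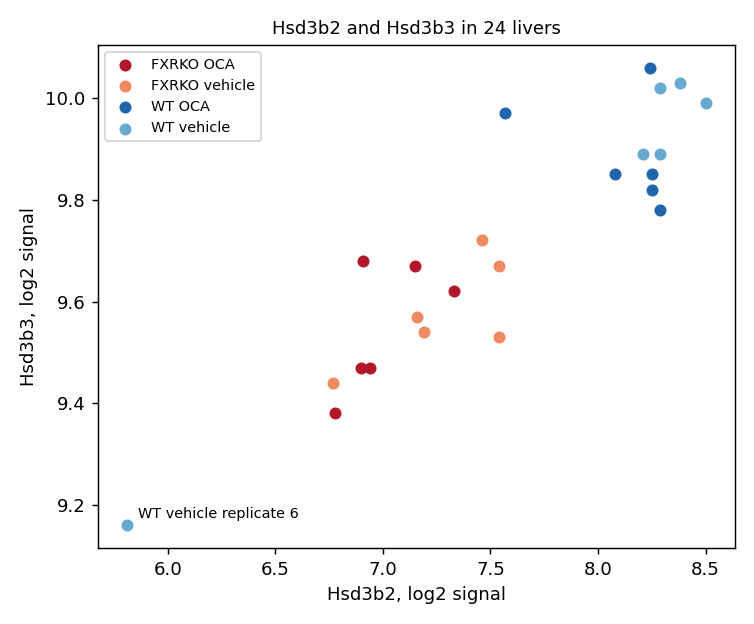
Log2 signal of Hsd3b3 against Hsd3b2 in the 24 livers, 1 point per array, coloured by group. FXR-/- arrays reach 7.54 for Hsd3b2 and 9.72 for Hsd3b3, and every wild-type array except WT vehicle replicate 6, at 5.81 and 9.16, lies above both values, the nearest for Hsd3b2 being WT OCA replicate 5 at 7.57.

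With group means removed, Hsd3b2 and Hsd3b3 had a Pearson r of 0.85 over the 24 arrays and of 0.33 without wild-type vehicle replicate 6, so the likeness within groups rested on that array. The points of such a correlation share labelling, array and scaling. In the same way r for Hsd3b2 and Hsd3b5 was 0.57 with that array and −0.15 without it. The 3 genes are neighbours on chromosome 3 in the order Hsd3b5, Hsd3b2, Hsd3b3, followed by Hsd3b6, Hsd3b1 and Hao2, and they did not change alike. Hsd3b6, another enzyme of the family, averaged 3.72 in FXR-/- and 4.05 in wild-type vehicle livers (−0.33 ± 0.11, adjusted p = 0.0303), a call lost with the array number as a block and without any of 4 single arrays (adjusted p 8.92e-04 to 0.217 over the alternatives), and Hsd3b1, known from steroid-making glands, averaged 2.68 and 2.63 and was not called (0.05 ± 0.09, adjusted p = 0.723). Hao2, a peroxisomal hydroxy acid oxidase that is higher in female mouse liver, was higher in FXR-/- livers (1.12 ± 0.29, adjusted p = 0.00497). Because close copies may share signal between probe sets, small changes within the family are uncertain; 2 further probe sets list Hsd3b5 together with other symbols and were not used.

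The 250 bases before the start of each Hsd3b gene are shown because 3 neighbours of 1 family differed in the size of their change. They are from RefSeq, build GRCm38.p6, minus strand: chr3:98645535-98645784 for Hsd3b5, chr3:98724544-98724793 for Hsd3b2 and, for the first of 2 listed starts, chr3:98763129-98763378 for Hsd3b3. Capitals mark the longest run of identical bases shared by Hsd3b5 and Hsd3b3, 24 bases long; the longest run that Hsd3b2 shares with either is 8 bases.
Hsd3b5: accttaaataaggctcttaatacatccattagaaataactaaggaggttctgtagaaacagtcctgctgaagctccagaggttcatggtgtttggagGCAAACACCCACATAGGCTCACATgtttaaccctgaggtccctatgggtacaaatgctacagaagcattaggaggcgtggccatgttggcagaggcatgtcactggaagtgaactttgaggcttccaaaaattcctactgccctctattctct
Hsd3b3: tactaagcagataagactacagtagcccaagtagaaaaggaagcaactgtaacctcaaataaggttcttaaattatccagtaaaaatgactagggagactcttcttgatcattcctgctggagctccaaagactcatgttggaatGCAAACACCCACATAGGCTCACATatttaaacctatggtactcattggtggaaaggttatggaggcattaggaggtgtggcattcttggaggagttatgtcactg
Hsd3b2: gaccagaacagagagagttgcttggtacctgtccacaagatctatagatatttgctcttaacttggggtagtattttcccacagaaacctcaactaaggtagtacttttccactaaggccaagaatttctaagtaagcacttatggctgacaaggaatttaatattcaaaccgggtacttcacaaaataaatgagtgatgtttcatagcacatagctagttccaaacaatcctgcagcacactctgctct
Searched on both strands, none of these stretches held the inverted repeat of AGGTCA with 1 base between its copies, a form of FXR site that is in 0.00609% of the 32851 listed stretches of the same length, the STAT5 motif TTCNNNGAA (7.02%), the TATA box TATAAA (12.4%) or the nuclear receptor half-site AGGTCA (14.0%). The steroid receptor half-site TGTTCT (16.1% of stretches) occurred once, on the reverse strand of Hsd3b2 at positions −246 to −241 counted from the start. A match describes letters and is not a bound site.

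Hsd11b1 encodes the reductase that regenerates active corticosterone from its inactive keto form in liver. It lay at 10.05, 10.27 and 10.46 in FXR-/- OCA livers, 9.81, 10.18 and 10.27 in FXR-/- vehicle livers, 10.82, 10.89 and 10.98 in wild-type OCA livers, and 10.70, 10.80 and 10.86 in wild-type vehicle livers. All 12 FXR-/- arrays lay below all 12 wild-type arrays. The change was −0.66 ± 0.08 under vehicle (1.58-fold lower, adjusted p = 2.18e-07) and −0.61 ± 0.08 under OCA (1.52-fold lower, adjusted p = 6.55e-07). It stayed called under each alternative tried, between −0.82 and −0.59 under vehicle. H6pd, which makes the NADPH that Hsd11b1 uses inside the endoplasmic reticulum, was not called (−0.10 ± 0.09, adjusted p = 0.459), nor was its neighbour on chromosome 1, the lipase inhibitor G0s2 (0.03 ± 0.25, adjusted p = 0.949). Nr3c1, the glucocorticoid receptor, changed by −0.18 ± 0.07 under vehicle and was not called (adjusted p = 0.076). It spanned 8.41 to 8.55 in FXR-/- and 8.22 to 8.83 (median 8.75) in wild-type vehicle livers. Under OCA Nr3c1 did not overlap, at 8.37 to 8.52 against 8.54 to 8.68, where 18.4% of all genes had no overlap. Serpina6, the corticosteroid-binding globulin of plasma, was higher under vehicle (0.75 ± 0.12, adjusted p = 3.46e-05).

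Of all genes 15.4% were higher and 12.1% lower in FXR-/- vehicle livers. Of 14 genes that glucocorticoids are known to induce in liver, 2 were higher and 5 lower. Their median change was −0.24, beside −0.03 over all genes. Without wild-type vehicle replicate 6 it was 2 higher and 4 lower with a median of −0.13. Pck1 (−1.23 ± 0.13, adjusted p = 5.67e-08) and G6pc (−1.34 ± 0.21, adjusted p = 1.59e-05), enzymes of glucose production, fell, as did the tryptophan enzyme Tdo2 (−0.52 ± 0.07, adjusted p = 2.95e-06). Sgk1, a kinase (0.98 ± 0.15, adjusted p = 2.35e-05), and Lcn2, an iron-binding acute phase protein (3.28 ± 0.72, adjusted p = 9.44e-04), rose. For Lcn2 the genotypes overlapped: wild-type vehicle livers spanned 7.79 to 13.06 (median 8.01) and FXR-/- vehicle livers 11.88 to 12.45. The list therefore held changes both ways, and several of its genes answer to other signals as well.

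Hsd17b2 oxidises estradiol and testosterone to their less active keto forms. It lay at 9.76, 9.90 and 10.03 in FXR-/- OCA livers, 9.71, 9.83 and 9.91 in FXR-/- vehicle livers, 10.59, 10.80 and 10.93 in wild-type OCA livers, and 10.54, 10.84 and 11.14 in wild-type vehicle livers. The genotypes did not overlap, and no FXR-/- array came within 0.5 of a wild-type one. The change was −1.01 ± 0.08 under vehicle (2.02-fold lower, adjusted p = 7.27e-10) and −0.88 ± 0.08 under OCA (1.84-fold lower, adjusted p = 7.50e-09). Under OCA it was −0.61 with the array number as a block (adjusted p = 0.022), and when replicate 6 of the wild-type vehicle group was also left out it was −0.52 and not called (adjusted p = 0.093), the adjusted p ranging from 2.48e-10 to 0.093 over the alternatives. Its neighbour Sdr42e1, a further short-chain dehydrogenase, was slightly lower under vehicle (−0.32 ± 0.09, adjusted p = 0.00949). Mphosph6, on the other side of Hsd17b2, was not called (−0.03 ± 0.16, adjusted p = 0.933).

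Hsd17b6 oxidises androstanediol back to dihydrotestosterone and also acts on retinol. It lay at 10.41, 10.59 and 10.90 in FXR-/- OCA livers, 10.54, 10.75 and 10.89 in FXR-/- vehicle livers, 10.50, 10.96 and 11.29 in wild-type OCA livers, and 10.38, 10.92 and 11.25 in wild-type vehicle livers. The groups overlapped throughout, and the FXR-/- arrays were less spread (SD 0.16 with OCA and 0.12 with vehicle) than the wild-type arrays (0.29 with OCA and 0.33 with vehicle). The change was −0.10 ± 0.13 under vehicle (adjusted p = 0.61, 95% interval −0.37 to 0.17) and −0.33 ± 0.13 under OCA (adjusted p = 0.0586, 95% interval −0.60 to −0.06), neither called. Under OCA median centring moved it to −0.52 and a call (adjusted p = 0.00169), and the adjusted p spanned 0.00169 to 0.861 over the alternatives. Sdr9c7, its neighbour on chromosome 10 and a related dehydrogenase, was lower in FXR-/- livers, at a mean of 6.34 against 8.45 under vehicle (−2.11 ± 0.23, adjusted p = 6.66e-08). Prim1, on the other side of Hsd17b6, was not called under vehicle (−0.18 ± 0.13, adjusted p = 0.322).

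Hsd17b11, Hsd17b12 and Hsd17b13 belong to lipid metabolism as much as to steroids: Hsd17b11 and Hsd17b13 are proteins of the lipid droplet surface, and Hsd17b12 is the reductase of fatty acid elongation. Hsd17b11 lay at 9.64, 9.84 and 10.00 in FXR-/- OCA livers, 9.94, 10.05 and 10.29 in FXR-/- vehicle livers, 9.47, 9.75 and 9.82 in wild-type OCA livers, and 9.64, 9.76 and 10.02 in wild-type vehicle livers. Of the 4 groups FXR-/- vehicle was the highest, overlapping wild-type vehicle in part. The change was 0.27 ± 0.08 under vehicle (1.20-fold, adjusted p = 0.0109) and 0.11 ± 0.08 under OCA, not called (adjusted p = 0.311).

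Hsd17b12 lay at 9.77, 9.93 and 10.09 in FXR-/- OCA livers, 9.82, 9.92 and 10.01 in FXR-/- vehicle livers, 9.49, 9.63 and 9.82 in wild-type OCA livers, and 9.56, 9.71 and 9.78 in wild-type vehicle livers. The genotypes were separate under vehicle and overlapped slightly under OCA. It was higher by 0.22 ± 0.06 under vehicle (1.16-fold, adjusted p = 0.0111) and by 0.27 ± 0.06 under OCA (1.20-fold, adjusted p = 0.00192). Its neighbours on either side were called in opposite directions under vehicle, each with overlapping genotypes. Alkbh3 was higher (0.23 ± 0.08, adjusted p = 0.0375) and Ttc17 lower (−0.34 ± 0.07, adjusted p = 5.20e-04). Neither was followed over the alternatives, so whether these calls depend on the scaling was not tested.

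Hsd17b13 lay at 11.91, 12.00 and 12.08 in FXR-/- OCA livers, 11.92, 12.01 and 12.08 in FXR-/- vehicle livers, 11.77, 11.92 and 11.95 in wild-type OCA livers, and 11.78, 11.84 and 11.89 in wild-type vehicle livers. Every FXR-/- vehicle array was above every wild-type vehicle array, by a small margin. The change was 0.17 ± 0.05 under vehicle (1.13-fold, adjusted p = 0.00867) and 0.10 ± 0.05 under OCA, not called (adjusted p = 0.121). Hsd17b13 and Hsd17b11 are neighbours on chromosome 5. The nucleotide hydrolase Nudt9, on the Hsd17b11 side, was higher under vehicle (0.31 ± 0.06, adjusted p = 1.85e-04), a call not followed over the alternatives. Klhl8, on the Hsd17b13 side, was not called (−0.03 ± 0.10, adjusted p = 0.849).

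These 3 rises depended on the choice of scaling. Quantile normalization kept all 3 calls under vehicle (adjusted p = 0.0181, 0.0365 and 0.00232). It gave 0.24 for Hsd17b11, 0.18 for Hsd17b12 and 0.20 for Hsd17b13. Median centring did not keep them. Centred on each array's median, the median of all genes moved to −0.20 under vehicle and −0.21 under OCA, and the share of called genes that were higher moved from 56.1% to 17.5% under vehicle and from 56.7% to 16.9% under OCA. The changes under vehicle were then 0.10 for Hsd17b11 (adjusted p = 0.29), 0.05 for Hsd17b12 (adjusted p = 0.478) and 0.00 for Hsd17b13 (adjusted p = 0.941), and under OCA Hsd17b11 and Hsd17b13 turned to −0.08 and −0.09. With the array number as a block the 3 changes under vehicle were 0.24, 0.22 and 0.15 and not called (adjusted p = 0.0826, 0.0586 and 0.0812), and within number 7 they were the same size (adjusted p = 0.134, 0.0657 and 0.134). Under OCA the block left Hsd17b12 at 0.26 and not called (adjusted p = 0.324). Over all alternatives under vehicle the adjusted p spanned 0.00409 to 0.29 for Hsd17b11, 0.00456 to 0.478 for Hsd17b12 and 9.91e-04 to 0.941 for Hsd17b13. Each of these 3 settings (centring, the block and number 7 alone) gave 0 higher and 5 lower genes of the 9 under vehicle. The 5 were Hsd3b2, Hsd3b3, Hsd3b5, Hsd11b1 and Hsd17b2. With centring 8354 of all 18820 genes were called lower under vehicle and 1776 higher.

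**Figure D3:**
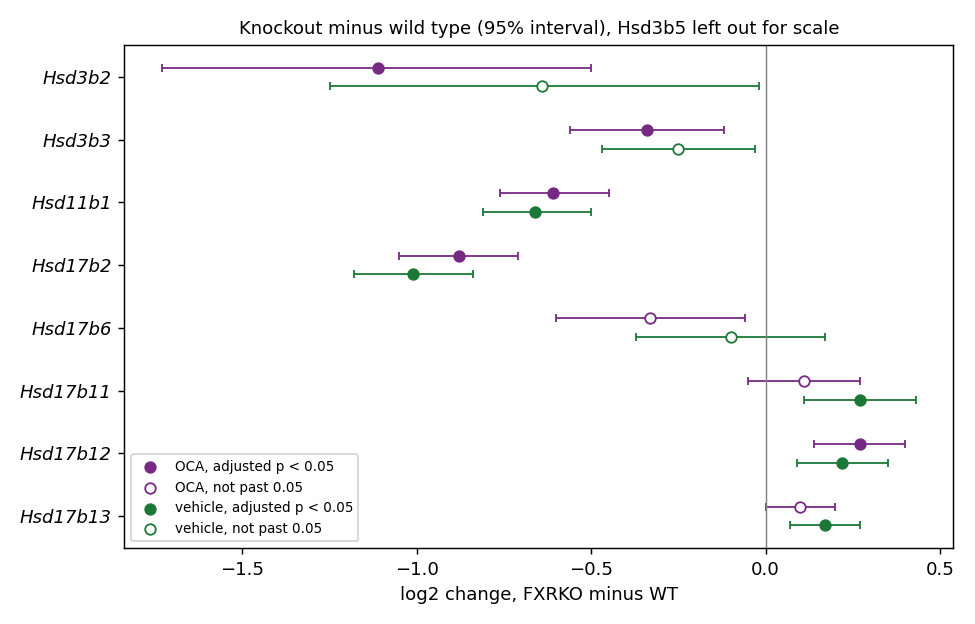
Log2 change in FXR-/- against wild-type livers with its 95% interval, under OCA and under vehicle, for 8 of the 9 genes (Hsd3b5, at −7.46 and −7.08, is left out for scale). Filled points passed an adjusted p of 0.05. Hsd11b1 and Hsd17b2 lie clear of 0 under both treatments, and Hsd17b11, Hsd17b12 and Hsd17b13 lie at 0.27 or less.

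The promoter of Hsd17b13 is shown because it alone of the 8 measured genes with a listed promoter held the nuclear receptor half-site AGGTCA. The 250 bases before its start are chr5:103977389-103977638, minus strand, from RefSeq (GRCm38.p6), and capitals mark the half-site on the reverse strand, at positions −96 to −91 counted from the start.
Hsd17b13: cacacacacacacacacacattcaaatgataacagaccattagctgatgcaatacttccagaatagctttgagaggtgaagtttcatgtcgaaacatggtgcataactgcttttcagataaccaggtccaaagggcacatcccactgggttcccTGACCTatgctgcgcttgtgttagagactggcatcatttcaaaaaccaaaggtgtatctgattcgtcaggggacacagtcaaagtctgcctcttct
The half-site is in 14.0% of all listed stretches of this length. No promoter of the 8 genes held the inverted repeat, TTCNNNGAA or TATAAA.

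Of 20 measured lipid droplet genes other than these, 6 were higher and none lower under vehicle, beside 15.4% and 12.1% of all genes. The median change of the 20 was 0.15. With replicate 6 of the wild-type vehicle group left out, 7 were higher and 1 lower, with a median of 0.10. The 5 named by smallest p were all higher: Fitm1, which helps droplets bud (1.22 ± 0.11, adjusted p = 5.24e-09), the droplet coat proteins Plin3 (0.85 ± 0.08, adjusted p = 1.11e-08) and Plin4 (1.72 ± 0.33, adjusted p = 2.10e-04), the droplet fusion protein Cidec (2.33 ± 0.30, adjusted p = 9.72e-07) and the lipase-like Pnpla3 (0.75 ± 0.18, adjusted p = 0.00255). Each of these 5 changes exceeded those of Hsd17b11 and Hsd17b13 on the log2 scale, in a list where 14 of 20 were not called. With group means removed, the genes most like Hsd17b11 over the 24 arrays were Hadha (r = 0.85), Acot1 (0.83) and Hadhb (0.80), enzymes of fatty acid oxidation and acyl-CoA hydrolysis, with r of 0.79, 0.80 and 0.71 when the 2 arrays farthest from the median were left out.

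Among 13 other hydroxysteroid dehydrogenases and reductases, 3 were higher and 2 lower under vehicle, beside 15.4% and 12.1% of all genes. The median change of the 13 was 0.05. Srd5a3, a polyprenol reductase of the 5-alpha-reductase family, was higher (0.54 ± 0.08, adjusted p = 3.85e-06), as were Hsdl2 (0.33 ± 0.08, adjusted p = 0.00265) and Hsd17b4, a peroxisomal enzyme of fatty acid oxidation (0.16 ± 0.06, adjusted p = 0.0371). Centring moved Hsdl2 to 0.16 and Hsd17b4 to −0.01 and ended both calls, and Hsd17b4 kept its call in 8 of 14 other settings and in 4 of 12 fits with 1 array left out (adjusted p 0.0011 to 0.102 for Hsdl2 and 0.00165 to 0.899 for Hsd17b4 over the alternatives). Hsd17b1, which makes estradiol, was lower at a mean of 4.06 against 4.37 (−0.31 ± 0.12, adjusted p = 0.0479), but the call held in only 3 of 12 other settings and 4 of 12 fits with 1 array left out, and the change was −0.13 within number 7 and −0.22 without FXR-/- vehicle replicate 2 (adjusted p 0.00185 to 0.501 over the alternatives). No gene of this list changed by as much as Hsd11b1 or Hsd17b2.

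Of 14 genes of steroid hydroxylation, keto reduction and sulfation, 4 were higher and 3 lower under vehicle, beside 15.4% and 12.1% of all genes. Without wild-type vehicle replicate 6 it was 5 higher and 3 lower. Akr1c18, the 20-alpha-hydroxysteroid dehydrogenase that inactivates progesterone, averaged 7.51 in FXR-/- and 3.78 in wild-type vehicle livers (3.72 ± 0.20, adjusted p = 3.55e-13). Cyp17a1, the hydroxylase and lyase of androgen synthesis, was higher (2.59 ± 0.22, adjusted p = 1.08e-09). The sulfotransferase Sult2a8 (−2.77 ± 0.16, adjusted p = 7.75e-13) and the oxysterol hydroxylases Cyp7b1 (−3.29 ± 0.26, adjusted p = 2.73e-10) and Cyp39a1 (−1.46 ± 0.15, adjusted p = 3.74e-08) were lower. Cyp7b1 and Cyp17a1 also stand in the lists of sex-biased genes given further on.

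Among 11 receptors, binding proteins and cofactor enzymes, 5 were higher and 1 lower, beside 15.4% and 12.1% of all genes. Without wild-type vehicle replicate 6 it was 5 higher and 2 lower. Besides Serpina6 the higher ones were the retinol and steroid dehydrogenase Rdh16 (0.99 ± 0.16, adjusted p = 4.26e-05), the electron carriers Cyb5a (0.34 ± 0.05, adjusted p = 1.03e-05) and Cyb5r3 (0.20 ± 0.05, adjusted p = 0.00187) and the heme-binding Pgrmc1 (0.30 ± 0.05, adjusted p = 5.07e-05). After centring Cyb5r3 was at 0.03 and no longer called (adjusted p = 0.586).

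Hsd3b5 is a male-biased gene of mouse liver, and its fall is set beside lists of such genes, which were chosen with results of these data known and are not independent evidence of a direction. All 15 other male-biased genes measured were lower in FXR-/- vehicle livers (median −1.88), and 10 of 11 female-biased genes were higher and none lower (median 2.09). Over all genes 12.1% were lower and 15.4% higher. Elovl3, a fatty acid elongase, fell by 7.48 on the log2 scale (SE 0.29, adjusted p = 6.01e-16), and the transporter Slco1a1 fell by 6.40 (SE 0.25, adjusted p = 7.42e-16). The female-biased cytochromes Cyp2b9 (7.40 ± 0.38, adjusted p = 8.66e-14) and Cyp2b13 (7.25 ± 0.18, adjusted p = 3.45e-20) rose. For Elovl3 (2.95 to 3.95 in FXR-/- vehicle livers) and Cyp2b13 (2.72 to 3.63 in wild-type vehicle livers) the lower group read near background, as for Hsd3b5. The lower groups of Slco1a1 (3.46 to 5.23 in FXR-/- vehicle livers) and Cyp2b9 (3.27 to 5.29 in wild-type vehicle livers) reached higher. The 95th percentile of the olfactory receptor genes was 3.5. The sizes are therefore not compared. Counts in both lists were the same without wild-type vehicle replicate 6. Of 11 genes of growth hormone signalling through STAT5, 7 were lower and 2 higher: Igf1 (−0.68 ± 0.07, adjusted p = 2.34e-08), the hormone receptor Ghr (−0.39 ± 0.05, adjusted p = 5.01e-07) and Socs2 (−1.48 ± 0.29, adjusted p = 3.22e-04), an inhibitor that STAT5 induces, were lower, and Igfbp3 (1.18 ± 0.12, adjusted p = 5.19e-08) was higher.

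**Figure D4:**
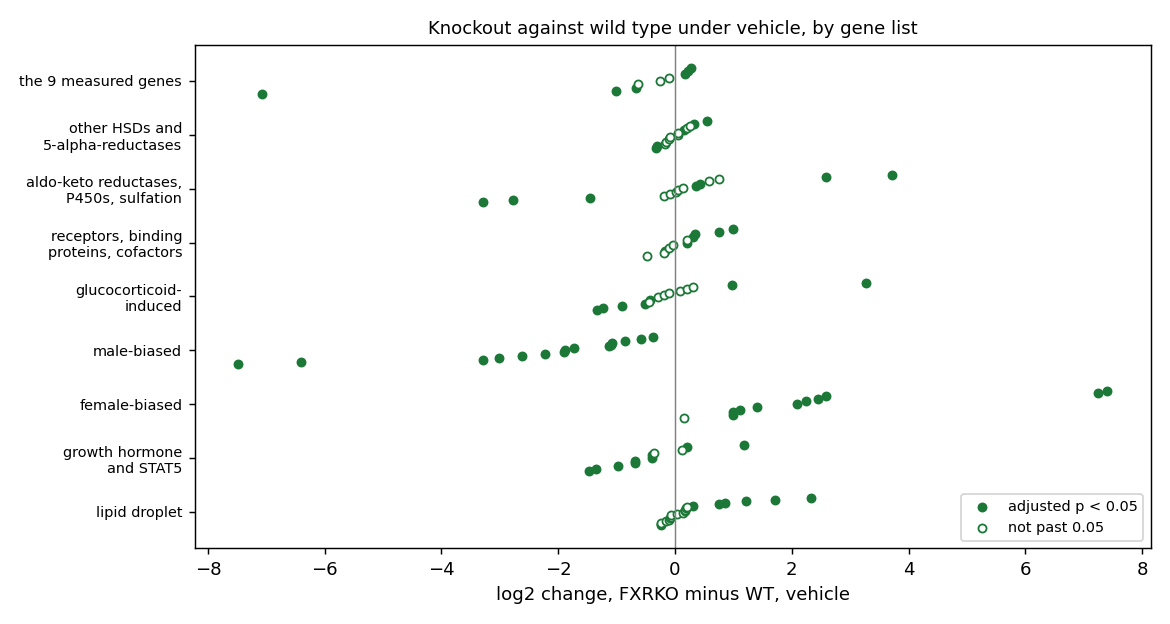
Log2 change in FXR-/- against wild-type livers under vehicle for the 9 measured genes and for the genes of 8 lists, 1 point per gene, filled where the adjusted p passed 0.05. Hsd3b5 lies at −7.08 and the 2 lowest male-biased genes at −7.48 (Elovl3) and −6.40 (Slco1a1). For Hsd3b5 and Elovl3 the size is set in part by background signal. The other 8 of the 9 measured genes lie between −1.01 and 0.27.

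The genes whose pattern over the 24 arrays was most like that of each enzyme were largely those with a wide gap between the genotypes. Hsd3b5 was nearest to Cyp2u1, Il1rap and Slc17a2 (r = 0.99 each), Hsd17b2 to Elovl3 (0.98), Gpc4 (0.98) and Ganab (0.97), and Hsd11b1 to Pla1a (0.95), Ly6g2 (0.94) and Slco1a1 (0.94). The arrays form 2 clusters by genotype, so these r values describe that gap. With group means removed, Hsd17b2 was nearest to Clock (0.86), Stra6l (0.84) and H6pd (0.83), and r was 0.76, 0.76 and 0.77 without the 2 farthest arrays.

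No change with OCA was called in any of the 9 genes. In wild-type livers limma called 0 of 9, with 0 of 9 at an unadjusted p under 0.05, where 13 of 18820 genes (0.0691%) were called and 9.47% had an unadjusted p under 0.05. In FXR-/- livers it called 0 of 9, with Hsd17b11 alone at an unadjusted p under 0.05, where 3 genes (0.0159%) were called and 5.14% were at that unadjusted p. For the OCA effect in FXR-/- minus that in wild-type livers it called 0 of 9, with 0 of 9 at an unadjusted p under 0.05, and 0 of all genes (0.00%), with 6.06% of genes at that unadjusted p. These contrasts use the same arrays as the genotype comparisons.

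The intervals show what sizes were left in range. For Hsd11b1 the OCA change was 0.14 ± 0.08 in FXR-/- livers (95% interval −0.01 to 0.30) and 0.09 ± 0.08 in wild-type livers (−0.06 to 0.25). For Hsd17b2 it was 0.06 ± 0.08 in FXR-/- livers (−0.11 to 0.24) and −0.07 ± 0.08 in wild-type livers (−0.24 to 0.11), and both genes thus had intervals that reached no further than 0.30 from 0 on the log2 scale. Hsd17b12 (−0.14 to 0.12 in FXR-/-, −0.19 to 0.07 in wild type) and Hsd17b13 (−0.11 to 0.09 and −0.04 to 0.16 in the same order) had the narrowest intervals. Hsd17b11 was lower with OCA in FXR-/- livers by 0.25 ± 0.08, which passed before adjustment and not after it (limma adjusted p = 0.795), its OCA arrays at 9.64 to 10.00 overlapping its vehicle arrays at 9.94 to 10.29 only between 9.94 and 10.00, and it was at −0.09 ± 0.08 in wild-type livers. The difference of those effects was −0.16 ± 0.11 (adjusted p = 0.865).

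For Hsd3b5 and Hsd3b2 the intervals were wide. The fit took 1 spread per gene from all 4 groups, also for the intervals in FXR-/- livers. For Hsd3b2 the SD was 1.04 in wild-type vehicle livers, which include replicate 6, and 0.20 to 0.30 in the other groups. For Hsd3b5 it was 0.87 in wild-type vehicle livers and 0.32 to 0.57 in the other groups. Hsd3b5 changed with OCA by −0.24 ± 0.30 in FXR-/- livers (−0.86 to 0.39) and by 0.14 ± 0.30 in wild-type livers (−0.49 to 0.77), and Hsd3b2 by −0.27 ± 0.30 (−0.89 to 0.34) and 0.20 ± 0.30 (−0.41 to 0.82) in the same order. In FXR-/- livers Hsd3b5 read near background (2.12 to 3.77), so its interval there cannot show a fall of the transcript. Without wild-type vehicle replicate 6 the wild-type values turned to −0.18 for Hsd3b5, −0.22 for Hsd3b2 and −0.08 for Hsd3b3, none called, so even their direction rested on that array. Of the list genes, Fitm1 was lower with OCA in wild-type livers (−0.58 ± 0.11, adjusted p = 0.0411), but the call held in only 7 of 14 other settings and 3 of 12 fits with 1 array left out, not without wild-type vehicle replicate 6 (adjusted p 0.00633 to 0.589 over the alternatives), and Hsd3b7, which acts in bile acid synthesis, was not called (−0.26 ± 0.10, adjusted p = 0.369).

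**Figure D5:**
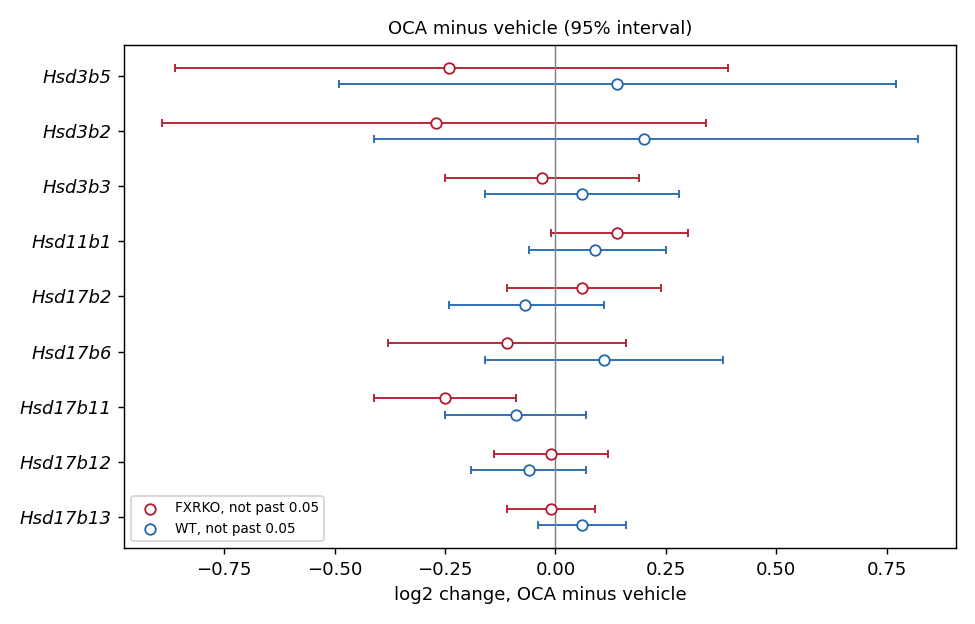
Log2 change with OCA against vehicle with its 95% interval, in FXR-/- and in wild-type livers, for the 9 measured genes. All points are open, since none passed an adjusted p of 0.05; the intervals of Hsd3b5 and Hsd3b2 are the widest, and that of Hsd17b11 in FXR-/- livers (−0.41 to −0.09) is the only one that leaves out 0.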

How the data were processed

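Per the submitters' processing notes the authors made the deposited log2 expression values by RMA; no version or log base is stated, and base 2 was inferred from the range of 0.87 to 13.6. Of 35556 probe sets, 21218 mapped to 1 symbol and were used; where a gene had several, the one with the highest mean was kept, which left 18820 genes. All genes entered a 4-group means model (limma 3.58.1 under R 4.3.3; 20 residual degrees of freedom and 4.46 from the prior), with the Benjamini-Hochberg adjustment taken over the 18820 genes. Promoters and neighbours came from RefSeq tables (GRCm38.p6). Figures used Python 3.11.15 and matplotlib 3.10.9. Each list gene named was among the 5 of smallest p for knockout against wild type (vehicle) or the 2 for OCA in wild type. Like genes were the 3 of highest r. H6pd, Nr3c1, the adipocyte markers and neighbouring genes were named outside this rule, after their values were seen. The members and lists were chosen with earlier results of these data known. No detection calls were used. Alternatives were median centring, quantile normalization, 2 filters on dim genes, array weights, a robust eBayes fit with a trend, fits of only the 2 groups of a contrast, blocks on array number, letter and replicate number, single array numbers, leaving out arrays whose names end in _2 or each array, and other probe set choices; list counts without wild-type vehicle replicate 6 were added after seeing the data. The fit was tested on simulated data.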

Additional observations from a re-analysis of the deposited data

Results flagged for a closer look

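In 6 of the 36 gene and group combinations of 6 arrays 1 array lay far from the other 5 of its group by Dixon's ratio; chance alone flags about 1 in 20 groups. In wild-type vehicle livers replicate 6 read 5.81 for Hsd3b2, against 8.21 to 8.50 in the others, and 9.16 for Hsd3b3, against 9.89 to 10.03, and replicate 1 read 9.56 for Hsd17b12, against 9.70 to 9.78. In wild-type OCA livers replicate 5 read 7.57 for Hsd3b2, against 8.08 to 8.29, and replicate 4 read 11.77 for Hsd17b13, against 11.88 to 11.95. In FXR-/- vehicle livers replicate 3 read 9.81 for Hsd11b1, against 10.14 to 10.27. Each of these arrays was the lowest of its group. Replicate 6 of the wild-type vehicle group also had the lowest Hsd3b5 of the wild-type arrays, 8.38, which did not pass the same ratio.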

How the results depend on the processing

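Hsd3b5 and Hsd11b1 kept their direction and call in both genotype comparisons under every alternative; Hsd17b2 did so except as given above. Of the 9 genes, the called count with each array left out was 6 to 8 under vehicle and 6 to 7 under OCA. Over all genes these fits called 4684 to 5451 under vehicle and 5349 to 5545 under OCA. Of the 9 genes 4 were called under OCA with the array number as a block. With that block and no wild-type vehicle replicate 6 it was 2 (Hsd3b5 and Hsd11b1). For the OCA contrasts the called count of the 9 was 0 under every alternative run. Replicate numbers did not pair the arrays (same-number correlations −0.08 to 0.17), and the replicate block left 6, 6, 0, 0 and 0 of the 9 genes called. Over all genes the counts moved as follows. Knockout against wild type: 5174 became 10130 with median centring under vehicle; 5780 became 11099 with centring, 2334 with the number block and 1834 with the block and no replicate 6 under OCA. OCA in wild type: 13 became 22 and 24 with the 2 filters, 5 with array weights and within number 5, 2 with only the groups compared, the letter block or all probe sets, 667 with the number block, 77 with that block and no replicate 6, 7 without the _2 arrays, 4 with the replicate block and 2 to 21 with each array left out. OCA in knockout: 3 became 0 or 1 with the filters, 11 with array weights, 5 with all probe sets, 0 with only the groups compared, the number block, number 9 alone, the letter block or no _2 arrays, and 0 to 4 with each array left out. The difference of OCA effects: 0 became 2 with array weights, 34 with the number block, 12 with that block and no replicate 6, and 0 to 3 with each array left out. The signs that turned, apart from those given above, were of uncalled changes. For OCA in wild type, the number block without replicate 6 gave 0.01 for Hsd17b11, −0.05 for Hsd17b6, −0.18 for Hsd3b2, −0.13 for Hsd3b3, −0.89 for Hsd3b5, 0.64 for Cish, 0.14 for Pnpla2, 0.00 for Socs2 and −0.02 for Tsc22d3; array weights gave −0.08, −0.04 and −0.07 for Hsd3b2, Hsd3b3 and Hsd3b5, and the letter block −0.05 for Hsd3b5. With each array left out these spanned −0.22 to 0.32 for Hsd3b2, −0.08 to 0.10 for Hsd3b3 and −0.18 to 0.35 for Hsd3b5. For OCA in knockout, Hsd3b2 and Hsd3b3 were at 0.04 with the number block and within number 9, and without the _2 arrays Hsd17b12, Hsd17b13 and Hsd3b3 were at 0.02, 0.02 and 0.01; with each array left out Hsd17b12 spanned −0.04 to 0.02, Hsd17b13 −0.03 to 0.01 and Hsd3b3 −0.06 to 0.00. For the difference, Hsd11b1 was −0.05 with the number block and −0.02 without the _2 arrays and spanned −0.02 to 0.10 with arrays left out; Hsd3b3 was 0.01 with array weights and spanned −0.13 to 0.05 with arrays left out, where Hsd3b2 (−0.59 to −0.05) and Hsd3b5 (−0.58 to −0.05) kept their sign; with the number block and no replicate 6 the 3 were 0.17, 0.21 and 0.71. For the difference without replicate 6, Hsd3b3 was 0.05, and with the number block as well Hsd11b1 was −0.01. Centring gave −0.01 for Hsd17b4 (knockout against wild type, vehicle) and −0.08 and −0.09 for Hsd17b11 and Hsd17b13 (OCA). For knockout against wild type under OCA Hsd17b11 was 0.00 with the number block and no replicate 6. Where no cause is shown by the setting itself, the cause was not tested. No detection calls were used, which limits what can be said of values near background.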
